A study of Mus musculus with 22 samples.

Results

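MYC-driven mouse liver tumours that carried a β-catenin construct but no model antigen were compared with MYC-driven tumours that carried a guide against p53 and a model antigen. The comparison holds 7 of the 22 tumours of the series, all from its second set of 10 (set 2 in the plots). They were chosen by their genotype labels and not by any measured value. The 3 luc β-catenin tumours carried MYC, CTNNB1 and luc (luciferase alone). The 4 lucOS p53 tumours carried MYC, sgp53 (a CRISPR guide against p53) and lucOS (luciferase joined to antigen peptides that T cells recognise), and are called p53 tumours here. Driver and antigen therefore both differ between the groups, and a difference cannot be assigned to either of them from these 7 tumours. The other 3 tumours of the set carried MYC, CTNNB1 and lucOS. By genotype label they differ from the p53 tumours in the driver alone and from the luc β-catenin tumours in the antigen alone. They also differ from p53 tumours in lung transcripts, and from 3 of the 4 in the letters of the title, both described below. The values of the lucOS β-catenin tumours are given beside the main ones. All tumours arose in C57BL/6 mice after plasmids were delivered to hepatocytes by injection into the tail vein, and none was treated.

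The labels give no age, sex or number of animals, and they do not give each tumour a mouse of its own. The p-values therefore measure the spread between these tumour samples. The titles of p53 tumours 1, 2 and 3 begin with AL, and those of p53 tumour 4 and of all 6 β-catenin tumours begin with JAX. What these letters stand for is not given in the sources used here, and for 3 of the 4 p53 tumours they cannot be told apart from the group. Tumour numbers only name the samples. The series was made to study escape from the immune system, and from antibodies against PD-1, in tumours with active β-catenin.

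β-catenin is the transcriptional arm of the canonical Wnt pathway. When it is stabilised it enters the nucleus, binds TCF/LEF factors and switches on target genes, several of which, such as Axin2, Notum and Rnf43, act back on the pathway as inhibitors. In the normal liver this activity marks the hepatocytes around the central vein, which make glutamine and carry many of the cytochrome P450 enzymes, while periportal hepatocytes make urea and glucose. p53 is a transcription factor that answers DNA damage with arrest or death genes such as Cdkn1a and Bax. Another target, Mdm2, encodes the ligase that degrades p53. T cells see an antigen as peptides on MHC molecules. Interferon γ from activated T and NK cells raises MHC genes, guanylate-binding proteins and the chemokines that draw more T cells in.

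Total reads over genes ran from 33.551 M to 40.754 M in the p53 tumours and from 41.106 M to 48.022 M in the luc β-catenin tumours, and between 17529 and 18170 genes were detected in each tumour of the set. The values are read counts scaled by 1 factor per tumour, and 1 read was worth 0.853 to 1.19 units in these 7 tumours. Differences are log2 of (value + 1), luc β-catenin minus p53, so a positive difference means higher in the luc β-catenin tumours. All 7 tumours had high levels of Alb (albumin), the main secreted product of hepatocytes, at 70110.0 to 120534 in p53 and 97958 to 502271 in luc β-catenin tumours. A list of 16 lung epithelial genes was written after the data had been seen, because some of its members had large differences, and it is described only. Its members summed to 228 to 919.9 in the p53 tumours and 1441 to 3053 in the luc β-catenin tumours. Of 14 tested members 9 were called higher and 1 lower (Foxj1, a factor of ciliated cells, log2 difference -3.66 ± 0.996 (SE), adjusted p = 0.0364), beside 5.82% and 10.2% of all genes tested. Members could pass the filter on low values through the β-catenin tumours alone, so this count is no support for the list. Foxj1 lost its call without p53 tumour 1, 2 or 3 or luc β-catenin tumour 2 or 3 (adjusted p = 0.0524 to 0.122). Scgb1a1, which encodes the club cell secretory protein of the airway, had values of 0, 0.92, 0.995 and 1.19 in the p53 tumours, 836, 1079 and 453 in the luc β-catenin tumours and 409.7, 472 and 448 in the lucOS β-catenin tumours. Sftpc, a surfactant protein of alveolar cells, had values of 2.74, 4.60, 7.96 and 0 in the p53 tumours, 738, 881 and 347 in the luc β-catenin tumours and 408, 376 and 356 in the lucOS β-catenin tumours, which gives a ratio of Sftpc to Scgb1a1 of 0.766 to 0.995 in all 6 β-catenin tumours. The first set of tumours showed no such level, with 0 of 7 tested members called. The 4 Y-linked genes measured had 0 reads in each p53 tumour and 3 to 12 reads in the luc β-catenin tumours, beside Xist at 64713 to 78909.5 in p53 and 33323 to 54336 in luc β-catenin tumours (log2 difference -0.68 ± 0.20 (SE), adjusted p = 0.0436). Xist lost its call without p53 tumour 1, 2, 3 or 4 or luc β-catenin tumour 2 or 3 (adjusted p = 0.0688 to 0.124). The part of these lung and Y-linked reads in the results that follow was not tested.

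The targeted genes were read first. Trp53 (chr11:69580359-69591873 in GENCODE's annotation of GRCm38, as for all genes given with a position) had values of 2223, 1345, 1900.3 and 1584 in the p53 tumours, 3054, 4324 and 4163 in the luc β-catenin tumours and 4405, 3232 and 2632 in the lucOS β-catenin tumours. Every p53 tumour lay below every β-catenin tumour (log2 difference 1.13 ± 0.23 (SE), adjusted p = 0.013), although Trp53 lost its call without luc β-catenin tumour 2 (adjusted p = 0.0558). A guide cuts the gene without having to remove its transcript, so this level is no direct check of the guide. Ctnnb1 had values of 30508, 35645, 27033 and 23510.3 in the p53 tumours and 24613, 25938 and 24703 in the luc β-catenin tumours, and Myc had values of 68.5, 120.5, 130.3 and 127 in the p53 tumours and 219, 99.9 and 81.0 in the luc β-catenin tumours. The groups overlapped for both (adjusted p = 0.386 and 0.875). The labels do not give the species of the MYC and CTNNB1 constructs, so these mouse gene values do not check them.

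Of 15625 genes tested, 2509 (16.1%) were called at an adjusted p under 0.05, 909 of them (5.82%) higher and 1600 (10.2%) lower in the luc β-catenin tumours. The median over all genes was -0.15, so the split depends on the scaling: with TMM factors, which brought the median to -0.005, 1250 genes were called higher and 968 lower. Groups that did not overlap were found for 1743 genes (11.2%) in the higher and 3558 (22.8%) in the lower direction. The count depended on single tumours. It was 914 without luc β-catenin tumour 2, 1243 and 1180 without p53 tumours 1 and 3, 1629 without p53 tumour 2, and 1615 and 1645 without luc β-catenin tumours 1 and 3, and 752 genes were called whichever tumour was left out. With the JAX titles alone, 3 luc β-catenin tumours stood against p53 tumour 4, which then had to be assumed to vary like the other groups, and 33 genes (0.211%) were called, 24 higher (0.154%) and 9 lower (0.0576%).

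Feedback genes of the Wnt pathway gave some of the largest differences. Of 18 tested members of the Wnt list, 6 were higher and 3 lower (background 5.82% and 10.2%), with a median of 0.71 against -0.15 for all genes. Low members such as Lgr5 could pass the filter through the β-catenin tumours alone, so this count is no support for the list. Axin2, a scaffold of the complex that destroys β-catenin (chr11:108920349-108950783), had values of 10.9, 11.0, 7.96 and 2.38 in the p53 tumours, 566, 472 and 506 in the luc β-catenin tumours and 679.7, 349 and 1047 in the lucOS β-catenin tumours. No p53 tumour came near any β-catenin tumour (log2 difference 5.99 ± 0.51 (SE), adjusted p = 0.000316). Lgr5, a receptor for R-spondins that marks Wnt-responsive stem cells and pericentral hepatocytes, had values of 0.913, 1.84, 3.98 and 1.19 in the p53 tumours, 311, 184 and 257 in the luc β-catenin tumours and 247, 373 and 173 in the lucOS β-catenin tumours (log2 difference 6.47 ± 0.44 (SE), adjusted p = 9.31e-05). Both also differed when only the JAX titles were used (Axin2 7.25, adjusted p = 0.0173, and Lgr5 6.81, adjusted p = 0.0173).

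Notum, a secreted enzyme that inactivates Wnt ligands, had values of 3.65, 237, 13.9 and 8.32 in the p53 tumours and 1709.7, 2114 and 1412 in the luc β-catenin tumours. p53 tumour 2 stood well above the other p53 tumours but below every luc β-catenin tumour (log2 difference 6.44 ± 1.17 (SE), adjusted p = 0.00922). Tcf7, which encodes a DNA-binding partner of β-catenin, was at 54.7 to 138 in p53 and 348 to 1229 in luc β-catenin tumours (log2 difference 2.73 ± 0.43 (SE), adjusted p = 0.00581). Tbx3, a transcription factor under Wnt control in the liver, was at 40.2 to 465 in p53 and 1868 to 2536 in luc β-catenin tumours (log2 difference 3.58 ± 0.76 (SE), adjusted p = 0.0157). Tbx3 lost its call without luc β-catenin tumour 2 (adjusted p = 0.0594). Ccnd1, which encodes cyclin D1, was at 547 to 934 in p53 and 2519 to 10036 in luc β-catenin tumours (log2 difference 2.50 ± 0.68 (SE), adjusted p = 0.0369). Ccnd1 lost its call without p53 tumour 1, 2, 3 or 4 or luc β-catenin tumour 2 or 3 (adjusted p = 0.0713 to 0.106).

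The list did not move as a block. Fzd5, a Wnt receptor, was lower at 895 to 1161 in p53 and 248 to 436 in luc β-catenin tumours (log2 difference -1.64 ± 0.33 (SE), adjusted p = 0.0123), as were Prox1, a hepatocyte transcription factor (log2 difference -1.33 ± 0.25 (SE), adjusted p = 0.0101), and Bambi, a decoy receptor of the TGF-β family (log2 difference -1.59 ± 0.45 (SE), adjusted p = 0.0401), which lost its call without p53 tumour 1, 2, 3 or 4 or luc β-catenin tumour 2 or 3 (adjusted p = 0.0634 to 0.136). The ubiquitin ligases Rnf43 and Znrf3, which remove Wnt receptors from the cell surface, were not called: Rnf43 lay at 177 to 565 in p53 and 112 to 303 in luc β-catenin tumours and Znrf3 at 965 to 1299.6 in p53 and 1066 to 1328 in luc β-catenin tumours. Nkd1, another feedback inhibitor, had values of 4.56, 11.0, 1.99 and 4.75 in the p53 tumours, 75.2, 63.0 and 11.1 in the luc β-catenin tumours and 63.3, 72.1 and 1231 in the lucOS β-catenin tumours. luc β-catenin tumour 3 was level with p53 tumour 2, and the call was missed (adjusted p = 0.104). Lef1 lay at 7.30 to 21.2 in p53 and 3.88 to 11.9 in luc β-catenin tumours (adjusted p = 0.7). Sp5, a β-catenin target, was below the filter on low values, at 0 to 0.995 in p53 and 5.11 to 13.6 in luc β-catenin tumours.

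**Figure D1:**
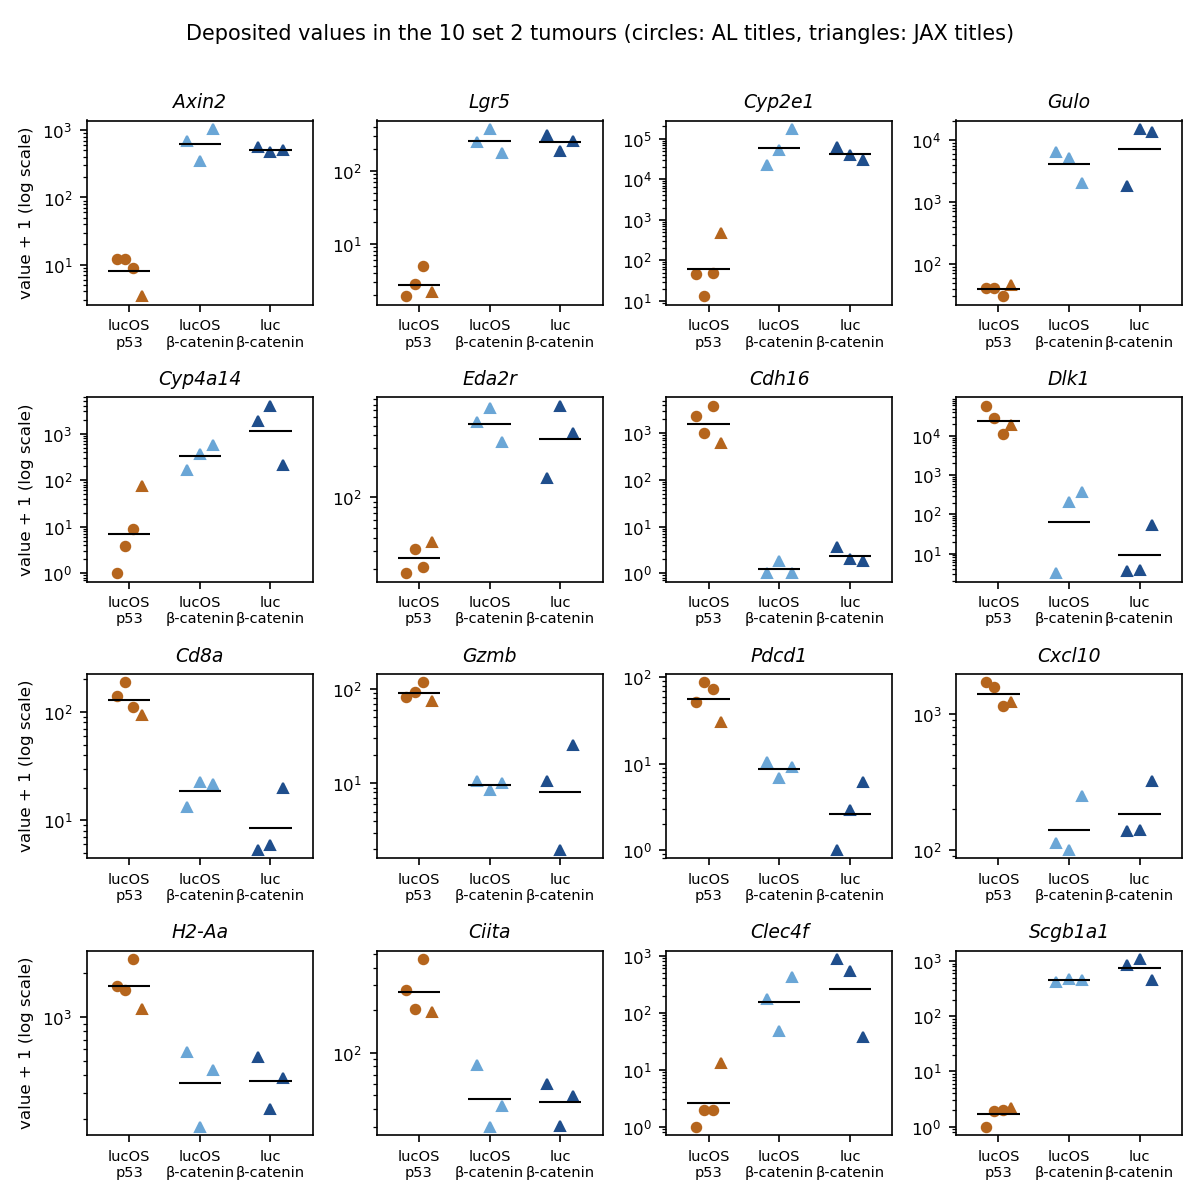
Values of 16 genes in the 10 tumours of the second set, 1 panel per gene, with value + 1 on a log axis. Each point is 1 tumour (circles for AL titles, triangles for JAX titles), and the bar is the mean on the log scale. In all 16 panels the 4 p53 tumours lie apart from all 6 β-catenin tumours.

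The enzymes and transporters that mark hepatocytes around the central vein were higher in the luc β-catenin tumours. Of 20 tested members 11 were higher and 0 lower (background 5.82% and 10.2%), and the median was 3.33. Members low in p53 tumours, such as Rhbg, could pass the filter through the β-catenin tumours alone. The count is therefore no support for the list. All 20 differences were positive, with TMM factors too. Cyp2e1, the P450 enzyme that oxidises ethanol (chr7:140763739-140774987), had values of 45.6, 11.96, 47.8 and 479 in the p53 tumours, 63426, 40476 and 29818 in the luc β-catenin tumours and 22692, 52507 and 174471 in the lucOS β-catenin tumours. p53 tumour 4 was above the other p53 tumours and still far below every β-catenin tumour (log2 difference 9.44 ± 1.07 (SE), adjusted p = 0.00143). Gulo, which makes the last step of vitamin C synthesis, had values of 39.2, 40.5, 28.9 and 45.1 in the p53 tumours and 1779.8, 15058 and 13589.8 in the luc β-catenin tumours (log2 difference 7.52 ± 0.69 (SE), adjusted p = 0.000491). Lect2, a secreted hepatocyte protein that is a known β-catenin target, had values of 47.5, 86.5, 37.8 and 82.0 in the p53 tumours, 1248, 1766 and 1543 in the luc β-catenin tumours and 2604, 2178 and 904 in the lucOS β-catenin tumours (log2 difference 4.63 ± 0.41 (SE), adjusted p = 0.000424).

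Lect2 is shown with 130 bases before its start, because it is a called member of the list whose promoter held a TCF motif. Capitals mark CTTTGAT, here on the opposite strand, from 32 to 26 bases before the start. The sequence is RefSeq's on GRCm38.p6, written 5′ to 3′ in the direction of the gene.
Lect2, chr13:56548539-56548668, minus strand: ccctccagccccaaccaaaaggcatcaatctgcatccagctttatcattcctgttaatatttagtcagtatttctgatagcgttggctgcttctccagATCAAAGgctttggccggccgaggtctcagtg
The motif was searched on both strands in the 250 bases before each start. It was in 1053 of 32851 promoters (3.21%), in 3 of the 13 pericentral members with a single promoter entry (Lect2, Cyp2c29 and Slc1a2), and in 0 of 5 such Wnt list members. A match is a description of these letters and no evidence of binding.

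Other members spanned a wide range. Rhbg, an ammonium transporter, was at 0 to 8.28 in p53 and 173 to 440.2 in luc β-catenin tumours (log2 difference 5.90 ± 0.91 (SE), adjusted p = 0.00512). Cyp1a2, which oxidises aromatic amines and caffeine, was at 12.8 to 49.9 in p53 and 731 to 2705 in luc β-catenin tumours (log2 difference 5.29 ± 0.87 (SE), adjusted p = 0.0064). Cyp2c29 was at 9.13 to 68.9 in p53 and 234 to 3083 in luc β-catenin tumours (log2 difference 4.66 ± 0.87 (SE), adjusted p = 0.0102). Glul, glutamine synthetase and the classical pericentral marker, was high in both groups, at 5940.3, 5667, 6927 and 9859 in the p53 tumours, 17352, 11916 and 11239 in the luc β-catenin tumours and 11956, 7394 and 13386 in the lucOS β-catenin tumours. Its difference was smaller than that of the other called members (log2 difference 0.94 ± 0.27 (SE), adjusted p = 0.041), and Glul lost its call without p53 tumour 1, 2 or 3 or luc β-catenin tumour 1, 2 or 3 (adjusted p = 0.0587 to 0.118). Oat, the ornithine aminotransferase that lies beside Glul in zonation, overlapped between the groups at 385 to 3957 in p53 and 2046 to 7695 in luc β-catenin tumours (adjusted p = 0.357). Slc1a2, a glutamate transporter, also overlapped at 3.56 to 467 in p53 and 63.9 to 1140.3 in luc β-catenin tumours, because p53 tumour 1 was above luc β-catenin tumour 3. Ces1f, a carboxylesterase, was at 4.56 to 373 in p53 and 1519 to 7559 in luc β-catenin tumours (log2 difference 7.25 ± 1.87 (SE), adjusted p = 0.0309), with p53 tumour 2 far above the other p53 tumours, and lost its call without p53 tumour 1, 3 or 4 or luc β-catenin tumour 1, 2 or 3 (adjusted p = 0.0549 to 0.0868). Without luc β-catenin tumour 2 the number of called pericentral members fell from 11 to 7, and the JAX-only median was 2.17.

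Enzymes of foreign compound metabolism followed the same direction. Of 24 tested members 12 were higher and 0 lower (background 5.82% and 10.2%), with a median of 1.95 and a JAX-only median of 1.32. Cyp2a5, which oxidises coumarin and nicotine, had values of 86.7, 20.2, 51.7 and 114 in the p53 tumours, 1782, 9158 and 3220.2 in the luc β-catenin tumours and 1765, 7632 and 9842 in the lucOS β-catenin tumours (log2 difference 6.01 ± 0.78 (SE), adjusted p = 0.00254). Its copy Cyp2a4 is close in sequence, so the separate values of the pair, like those of the Cyp2c and Cyp4a genes, are uncertain. Cyp2c50 was at 4.60 to 14.3 in p53 and 111 to 698 in luc β-catenin tumours (log2 difference 5.24 ± 0.66 (SE), adjusted p = 0.0024). Cyp2c37 was at 52.0 to 113 in p53 and 320.0 to 1256 in luc β-catenin tumours (log2 difference 3.03 ± 0.54 (SE), adjusted p = 0.00855). Por, which supplies electrons to all microsomal P450 enzymes, was at 4839 to 9488 in p53 and 17880.5 to 31115 in luc β-catenin tumours (log2 difference 1.90 ± 0.33 (SE), adjusted p = 0.00807). Ugt1a1, which conjugates bilirubin, was at 4209 to 9093 in p53 and 19175 to 32580.2 in luc β-catenin tumours (log2 difference 1.89 ± 0.33 (SE), adjusted p = 0.00756). Without p53 tumour 3 or luc β-catenin tumour 2 the list held 7 higher calls. Nr1i3, the receptor CAR that governs several of these enzymes, overlapped at 429.6 to 2683 in p53 and 617 to 4149 in luc β-catenin tumours (adjusted p = 0.231).

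Periportal genes were mostly not called. Of 18 tested members 0 were higher and 1 lower (background 5.82% and 10.2%), and the median was -0.89. Sds, serine dehydratase, had values of 2202, 296, 3044 and 6661 in the p53 tumours and 54.5, 139 and 20.5 in the luc β-catenin tumours (log2 difference -5.12 ± 1.51 (SE), adjusted p = 0.0462). Sds lost its call without p53 tumour 1, 3 or 4 or luc β-catenin tumour 1, 2 or 3 (adjusted p = 0.0828 to 0.126). With TMM factors none of the 18 was called. The urea cycle genes Cps1 (57221 to 154716 in p53 and 52934 to 332773 in luc β-catenin tumours), Ass1 (7737 to 49654 in p53 and 8903 to 81116 in luc β-catenin tumours) and Arg1 (5969 to 10838 in p53 and 554 to 12553 in luc β-catenin tumours) overlapped between the groups, and luc β-catenin tumour 1 was the lowest of the 7 for Arg1. The general hepatocyte list held 3 called members of 21, all higher. Tdo2, which opens the tryptophan ring, had values of 97.7, 91.1, 305 and 7016 in the p53 tumours and 25577, 36226 and 13857 in the luc β-catenin tumours (log2 difference 5.97 ± 1.28 (SE), adjusted p = 0.016). p53 tumour 4, the one with a JAX title, was far above the other p53 tumours, and Tdo2 lost its call without luc β-catenin tumour 2 (adjusted p = 0.0612). Slco1b2, a bile acid and drug uptake transporter (log2 difference 3.92 ± 0.997 (SE), adjusted p = 0.0293), lost its call without p53 tumour 3 or luc β-catenin tumour 1, 2 or 3 (adjusted p = 0.0585 to 0.0852), and Tat, tyrosine aminotransferase (log2 difference 2.92 ± 0.71 (SE), adjusted p = 0.025), lost its call without p53 tumour 1, 2 or 3 or luc β-catenin tumour 2 or 3 (adjusted p = 0.0559 to 0.0945). Alb, Ttr and Apoa1, which encode plasma proteins, overlapped, with adjusted p of 0.192, 0.216 and 0.885.

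**Figure D2:**
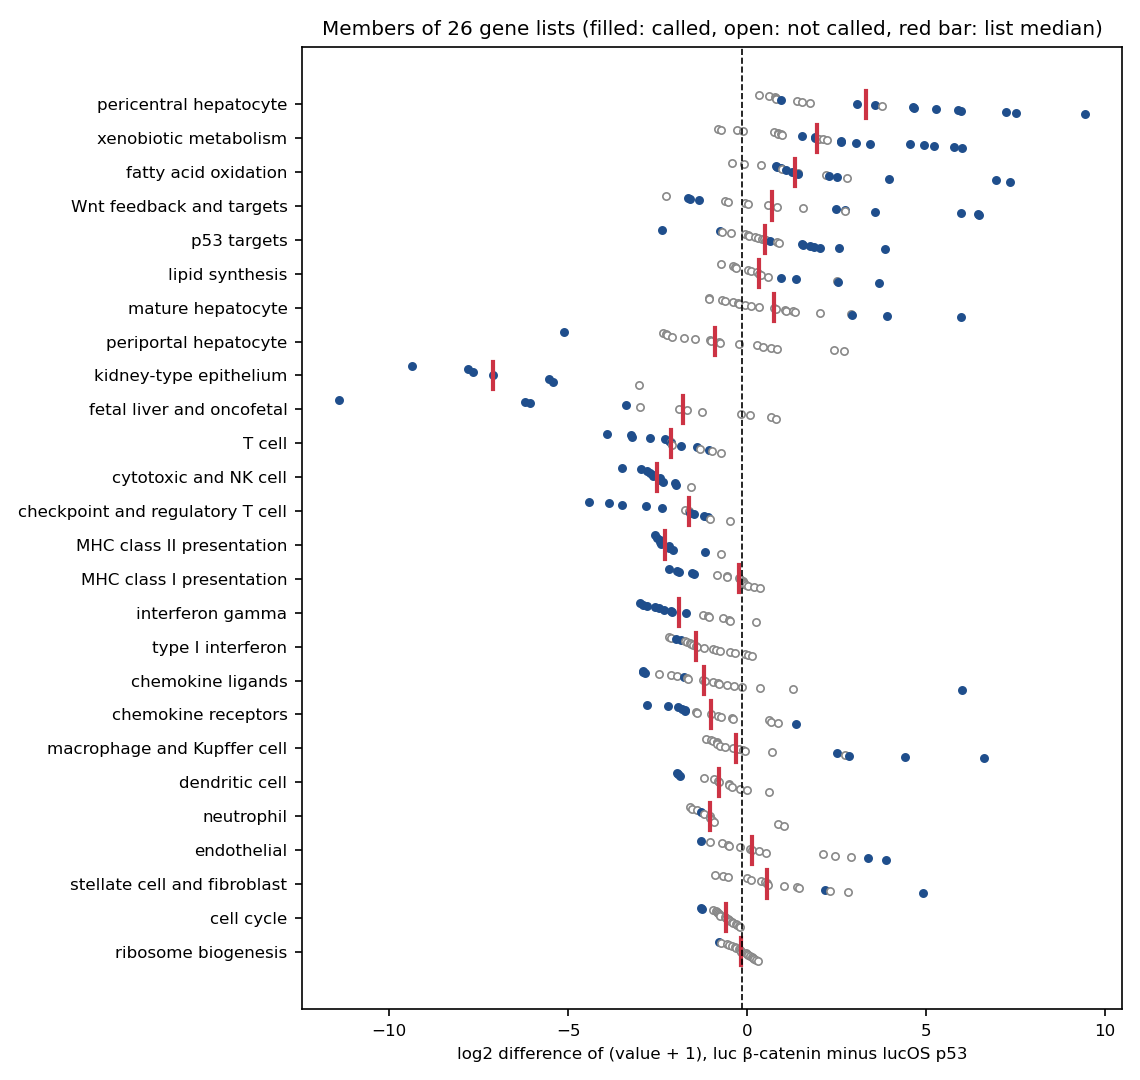
Log2 differences of (value + 1) between luc β-catenin and p53 tumours for the tested members of 26 gene lists, 1 point per gene (filled where called), with the list median as a red bar and the median of all genes, -0.149, as a dashed line. Pericentral members all lie to the right of 0, and T cell, cytotoxic and MHC class II members all lie to the left.

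Fatty acid oxidation genes were also higher. Of 18 tested members 11 were higher and 0 lower (background 5.82% and 10.2%), with a median of 1.34. Cyp4a14 could pass the filter on low values through the β-catenin tumours alone, so its call is no support for the list. Cyp4a14, an ω-hydroxylase of fatty acids and a target of PPARα, had values of 0, 2.76, 7.96 and 74.8 in the p53 tumours, 1893, 3993 and 207 in the luc β-catenin tumours and 164, 369 and 578 in the lucOS β-catenin tumours (log2 difference 7.35 ± 1.40 (SE), adjusted p = 0.0108). p53 tumour 4 was the highest p53 tumour and luc β-catenin tumour 3 the lowest of its group, and the groups did not overlap. Acot1, which releases fatty acids from CoA, was at 221 to 808 in p53 and 5069 to 12719 in luc β-catenin tumours (log2 difference 3.96 ± 0.58 (SE), adjusted p = 0.00427). Acadl, a mitochondrial dehydrogenase, was at 2826 to 3941 in p53 and 6148 to 11340.3 in luc β-catenin tumours (log2 difference 1.43 ± 0.27 (SE), adjusted p = 0.0102). Ehhadh, of the peroxisomal pathway, was at 1024 to 2504 in p53 and 5013 to 17512 in luc β-catenin tumours (log2 difference 2.52 ± 0.52 (SE), adjusted p = 0.0141), and Ehhadh lost its call without luc β-catenin tumour 2 (adjusted p = 0.0519). The differences of Acadvl, Hadha, Hadhb and Cpt2 were called too and lay between 0.80 and 1.08. Acadvl was near the threshold (adjusted p = 0.0423). Which of these 4 genes dropped out when a tumour was removed is not listed here, so they are not given as robust. The receptor Ppara itself (3164 to 7549.6 in p53 and 4331 to 11342 in luc β-catenin tumours) overlapped between the groups. Without luc β-catenin tumour 2 the list held 4 higher calls in place of 11, so most of its calls were lost there. The JAX-only median was 0.85.

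In the lipid synthesis list 4 of 15 tested members were higher and 0 lower (background 5.82% and 10.2%), with a median of 0.35. The first set did not share this direction. There 0 of 15 tested members were called higher and 2 lower (background 2.93% and 4.54%), with a median of -0.40. Scd1, which puts the first double bond into fatty acids, had values of 5525, 11883, 11829 and 17577 in the p53 tumours, 71269, 56284 and 63916 in the luc β-catenin tumours and 24536, 19727 and 28128 in the lucOS β-catenin tumours. Here the luc β-catenin tumours also lay above all lucOS β-catenin tumours (log2 difference 2.56 ± 0.33 (SE), adjusted p = 0.00255 against the p53 tumours), although the difference between the β-catenin groups was not called. Me1, malic enzyme, was at 320.2 to 1337 in p53 and 5496 to 15561 in luc β-catenin tumours (log2 difference 3.68 ± 0.64 (SE), adjusted p = 0.00787). Fdps and Hmgcs1, of the mevalonate pathway, were called with smaller differences (1.36 and 0.96). Fdps lost its call without p53 tumour 1 or 3 or luc β-catenin tumour 2 or 3 (adjusted p = 0.0703 to 0.0888), and Hmgcs1 lost its call without p53 tumour 1, 2 or 3 or luc β-catenin tumour 2 or 3 (adjusted p = 0.0736 to 0.114). Fasn (36462 to 67902 in p53 and 23299 to 60839 in luc β-catenin tumours) and Acly (18962 to 22853 in p53 and 6640.1 to 19045 in luc β-catenin tumours), which make fatty acids and their acetyl-CoA, overlapped between the groups.

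Targets of p53 were split. Of 22 tested members, 8 were higher and 2 lower in the luc β-catenin tumours (background 5.82% and 10.2%), and the median was 0.49. Eda2r, a receptor of the TNF family, had values of 17.3, 30.4, 19.9 and 35.6 in the p53 tumours, 153, 779.6 and 422 in the luc β-catenin tumours and 544, 735 and 346 in the lucOS β-catenin tumours (log2 difference 3.85 ± 0.53 (SE), adjusted p = 0.0034). Ccng1, cyclin G1, had values of 1552, 1302, 1196 and 1219 in the p53 tumours, 3737, 4580.5 and 3253 in the luc β-catenin tumours and 2838, 2882 and 5257 in the lucOS β-catenin tumours (log2 difference 1.54 ± 0.23 (SE), adjusted p = 0.00443). For both genes every p53 tumour lay below all 6 β-catenin tumours, and both calls held with each tumour left out. Phlda3, an inhibitor of Akt, was at 71.2 to 97.5 in p53 and 178 to 915 in luc β-catenin tumours (log2 difference 2.03 ± 0.49 (SE), adjusted p = 0.0252). Phlda3 lost its call without p53 tumour 1 or 3 or luc β-catenin tumour 2 (adjusted p = 0.0586 to 0.0649). Zmat3, an RNA-binding protein, was at 392 to 696 in p53 and 954 to 3187 in luc β-catenin tumours (log2 difference 1.75 ± 0.40 (SE), adjusted p = 0.0206). Zmat3 lost its call without p53 tumour 1 or luc β-catenin tumour 2 (adjusted p = 0.0549 to 0.0637). Fas, the death receptor, was at 85.6 to 168 in p53 and 233 to 736 in luc β-catenin tumours (log2 difference 1.86 ± 0.44 (SE), adjusted p = 0.0223). Fas lost its call without p53 tumour 1, 2 or 3 or luc β-catenin tumour 2 or 3 (adjusted p = 0.0515 to 0.0874).

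The best known targets did not all follow. Cdkn1a, the p21 inhibitor of the cell cycle, overlapped at 1410.0 to 2413 in p53 and 1171 to 5758 in luc β-catenin tumours (adjusted p = 0.561), and Mdm2, the ligase that degrades p53, overlapped at 1586 to 2608 in p53 and 2367 to 3408 in luc β-catenin tumours (adjusted p = 0.175). Bax, which permeabilises mitochondria, was at 1491 to 1785 in p53 and 1889.6 to 3158 in luc β-catenin tumours (log2 difference 0.65 ± 0.19 (SE), adjusted p = 0.0451). Bax lost its call without p53 tumour 1, 2, 3 or 4 or luc β-catenin tumour 2 or 3 (adjusted p = 0.0754 to 0.159). Pmaip1, which encodes the death protein Noxa, went the other way, at 601, 575, 948 and 522 in the p53 tumours and 64.9, 221 and 131 in the luc β-catenin tumours (log2 difference -2.37 ± 0.49 (SE), adjusted p = 0.0145). Sesn1, a stress-induced inhibitor of mTORC1, was also lower (log2 difference -0.74 ± 0.22 (SE), adjusted p = 0.0451). Sesn1 lost its call without p53 tumour 1, 3 or 4 or luc β-catenin tumour 1, 2 or 3 (adjusted p = 0.093 to 0.11). The smallest number of higher calls with 1 tumour left out was 2 of the 8.

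The 12 genes with the largest differences in each direction, among those called with every tumour left out, held further groups. Besides those given above, the higher side had Pkp1, a desmosome protein usually found in stratified epithelia, at 0, 0.92, 0 and 1.19 in the p53 tumours, 863, 589 and 195 in the luc β-catenin tumours and 1391, 23.2 and 165 in the lucOS β-catenin tumours (adjusted p = 0.00334). The groups were also far apart for Serpinb8, an intracellular protease inhibitor, at 6.39 to 55.7 in p53 and 1720.1 to 2184 in luc β-catenin tumours (log2 difference 6.95 ± 0.74 (SE), adjusted p = 0.00112). A pair of genes known from neurons was higher: Srrm4, a splicing factor of neural exons, at 0 to 1.84 in p53 and 101 to 417 in luc β-catenin tumours (adjusted p = 0.00112). Rims4, of the presynaptic zone, was at 0 to 7.36 in p53 and 199.8 to 743 in luc β-catenin tumours (log2 difference 7.29 ± 1.07 (SE), adjusted p = 0.00427). The major urinary protein genes Mup10 (0 to 1.19 in p53 and 87.8 to 284 in luc β-catenin tumours) and Gm2083 (0 to 6.44 in p53 and 218 to 849 in luc β-catenin tumours) were higher as well, and since the Mup genes are near-identical copies their separate values are uncertain.

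Among genes called with the JAX titles alone, and named after their values had been seen, was Raet1e, a ligand of the activating receptor NKG2D on NK and T cells. It had values of 3.65, 36.8, 68.7 and 10.7 in the p53 tumours, 466, 489.7 and 461 in the luc β-catenin tumours and 452, 376 and 304 in the lucOS β-catenin tumours (log2 difference 4.60 ± 0.77 (SE), adjusted p = 0.00689, and 5.34, adjusted p = 0.00895 with the JAX titles alone). The Raet1 genes are near-identical, so reads cannot be placed among them with certainty. The receptor's own gene, Klrk1, was lower, at 46.3 to 72.7 in p53 and 8.73 to 24.7 in luc β-catenin tumours (log2 difference -2.01 ± 0.49 (SE), adjusted p = 0.0244). Klrk1 lost its call without p53 tumour 1, 2 or 3 or luc β-catenin tumour 1 or 2 (adjusted p = 0.0559 to 0.0924). Rxrg, a retinoid receptor, was at 0 to 166 in p53 and 160.0 to 297 in luc β-catenin tumours (log2 difference 5.14 ± 1.45 (SE), adjusted p = 0.0401), and lost its call without p53 tumour 1, 3 or 4 or luc β-catenin tumour 1, 2 or 3 (adjusted p = 0.0746 to 0.116). Aox3, an aldehyde oxidase, was at 29.2 to 299 in p53 and 4750.1 to 8195 in luc β-catenin tumours (log2 difference 6.50 ± 0.75 (SE), adjusted p = 0.00158). Hspb8, a small heat shock protein, was at 6.39 to 119 in p53 and 2495 to 3608 in luc β-catenin tumours (log2 difference 6.10 ± 0.78 (SE), adjusted p = 0.00249). Igf1, the growth factor that the adult liver secretes, was lower, at 1782, 1954, 4093 and 3869 in the p53 tumours, 418, 417 and 496 in the luc β-catenin tumours and 405, 522 and 369.5 in the lucOS β-catenin tumours (log2 difference -2.62 ± 0.31 (SE), adjusted p = 0.00173, and -3.13, adjusted p = 0.0232 with the JAX titles alone).

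Most tested genes of kidney epithelium were high in the p53 tumours and near 0 or low in the luc β-catenin tumours. Of 13 listed genes 7 passed the filter on low values, which they could do through the p53 tumours alone, so their count is no support for the list. Of these 6 were lower (background 10.2%). Cdh16, kidney-specific cadherin (chr8:104601911-104624396), had values of 2296, 996, 3914 and 628 in the p53 tumours, 2.59, 0.97 and 0.852 in the luc β-catenin tumours and 0, 0.829 and 0 in the lucOS β-catenin tumours (log2 difference -9.35 ± 0.63 (SE), adjusted p = 9.31e-05, and -8.06, adjusted p = 0.0232 with the JAX titles alone). Kl, which encodes the FGF23 co-receptor Klotho, had values of 475, 100.3, 352 and 144 in the p53 tumours, 0, 0 and 0 in the luc β-catenin tumours and 0, 1.66 and 0 in the lucOS β-catenin tumours (at least 99.6-fold lower in the luc β-catenin tumours, adjusted p = 0.000279). Dao, D-amino acid oxidase of the proximal tubule, had values of 449, 139, 286 and 517 in the p53 tumours and 2.59, 0 and 0 in the luc β-catenin tumours (adjusted p = 0.000279). Pax8, a transcription factor of kidney and thyroid, was at 593 to 1329 in p53 and 1.73 to 15.5 in luc β-catenin tumours (log2 difference -7.10 ± 0.92 (SE), adjusted p = 0.00258).

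Cubn and Lrp2 encode the paired endocytic receptors cubilin and megalin. Cubn was at 1710.3 to 6015 in p53 and 15.5 to 228 in luc β-catenin tumours (log2 difference -5.54 ± 0.87 (SE), adjusted p = 0.00558). Lrp2 was at 718 to 1996 in p53 and 7.67 to 122 in luc β-catenin tumours (log2 difference -5.42 ± 1.37 (SE), adjusted p = 0.0285). Lrp2 lost its call without p53 tumour 1, 2 or 3 or luc β-catenin tumour 1 or 3 (adjusted p = 0.0596 to 0.0831). The values of Cubn in the lucOS β-catenin tumours were 824, 1495 and 2577. Defining kidney genes that failed the filter were low in all 7 tumours. Umod, of the thick ascending limb, was at 1.19 to 20.9 in p53 and 0 in luc β-catenin tumours, Pax2, a factor of kidney development, at 0 to 3.56 in p53 and 0 in luc β-catenin tumours, and Aqp2, of the collecting duct, at 0 to 1.99 in p53 and 0 in luc β-catenin tumours. Slc22a6, an organic anion transporter, overlapped at 114 to 1194 in p53 and 5.97 to 1090.5 in luc β-catenin tumours (adjusted p = 0.355).

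Fetal liver genes were uneven. Dlk1, a Notch-like protein of fetal hepatoblasts (chr12:109452823-109463336), had values of 59455, 28539, 11448 and 18987 in the p53 tumours, 2.59, 2.91 and 53.7 in the luc β-catenin tumours and 2.18, 206 and 378 in the lucOS β-catenin tumours (log2 difference -11.39 ± 1.57 (SE), adjusted p = 0.0034), the largest difference among the 2509 called genes. Trim71 was at 934 to 1289.8 in p53 and 2.59 to 75.0 in luc β-catenin tumours (log2 difference -6.21 ± 1.05 (SE), adjusted p = 0.00718). Lin28b was at 247 to 1867 in p53 and 1.73 to 63.9 in luc β-catenin tumours (log2 difference -6.07 ± 1.10 (SE), adjusted p = 0.00893), 2 regulators of the let-7 microRNA pathway. Meg3, the maternal transcript of the same imprinted locus as Dlk1, was at 1678 to 13410.2 in p53 and 139.6 to 1219 in luc β-catenin tumours (log2 difference -3.40 ± 0.88 (SE), adjusted p = 0.0306). Meg3 lost its call without p53 tumour 1, 2 or 3 or luc β-catenin tumour 1 or 2 (adjusted p = 0.0537 to 0.111). Afp, α-fetoprotein, had values of 6164, 21510.4, 15455 and 37409.5 in the p53 tumours, 118, 2875 and 27609 in the luc β-catenin tumours and 93.2, 58166 and 100.4 in the lucOS β-catenin tumours. Of the luc β-catenin tumours 2 lay below every p53 tumour and the other within their range (adjusted p = 0.4). Gpc3, Igf2 and H19, other genes of the fetal liver, were not called. Of 12 tested members 4 were lower (background 10.2%), and the median was -1.79. Members could pass the filter through the p53 tumours alone, so this count is no support for the list.

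Other genes of the 12 with the largest lower differences had these values. Crhr2, a receptor of the corticotropin-releasing hormone family, had values of 576, 926, 201 and 299 in the p53 tumours, 0, 0.97 and 2.56 in the luc β-catenin tumours and 7.28, 4.15 and 0.823 in the lucOS β-catenin tumours (log2 difference -7.79 ± 0.71 (SE), adjusted p = 0.000491). Dpp6, a potassium channel partner, was at 129.5 to 1371 in p53 and 0 to 4.85 in luc β-catenin tumours (log2 difference -7.81 ± 1.27 (SE), adjusted p = 0.00624). Onecut3 and Nkx1-1 encode homeobox factors, and they were at 86.7 to 2064 in p53 and 0 to 0.865 in luc β-catenin tumours (adjusted p = 0.00276) and 118 to 842 in p53 and 0 to 0.865 in luc β-catenin tumours (adjusted p = 0.00728). Other members were Glrp1 (269.7 to 777 in p53 and 0 to 4.32 in luc β-catenin tumours), Fam183b (163 to 268 in p53 and 0 to 0.852 in luc β-catenin tumours) and Gm266 (38.0 to 949 in p53 and 0 to 0.97 in luc β-catenin tumours). Krt19 and Epcam, which mark duct epithelium, were not called.

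Many transcripts of T cells were lower in the luc β-catenin group. Of 15 tested members of the T cell list, 10 were lower and 0 higher (background 10.2% and 5.82%). All 15 differences were negative (with TMM factors too), and the median was -2.12. Low members could pass the filter through the p53 tumours alone, so this count is no support for the list. In bulk tumour RNA fewer cells of a type and less RNA per cell cannot be told apart. Cd8a, the co-receptor of cytotoxic T cells (chr6:71373427-71379173), had values of 139, 187, 109 and 92.7 in the p53 tumours, 4.32, 4.85 and 18.8 in the luc β-catenin tumours and 12.4, 21.6 and 20.6 in the lucOS β-catenin tumours. All 4 p53 tumours lay above all 6 β-catenin tumours (log2 difference -3.92 ± 0.52 (SE), adjusted p = 0.00276). Its partner Cd8b1 was at 24.9 to 50.7 in p53 and 0.97 to 9.38 in luc β-catenin tumours (log2 difference -3.21 ± 0.60 (SE), adjusted p = 0.0102). The receptor chains Cd3g (42.8 to 66.6 in p53 and 1.94 to 8.65 in luc β-catenin tumours, log2 difference -3.25 ± 0.52 (SE), adjusted p = 0.00588) and Cd3e (38.0 to 51.5 in p53 and 8.73 to 11.1 in luc β-catenin tumours, log2 difference -2.12 ± 0.38 (SE), adjusted p = 0.00863) were lower, as was the signalling kinase Lck (log2 difference -2.28 ± 0.41 (SE), adjusted p = 0.00922).

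Cd4, the co-receptor of helper T cells, had values of 398, 335, 214 and 78.4 in the p53 tumours, 20.8, 46.5 and 118 in the luc β-catenin tumours and 75.7, 63.0 and 63.4 in the lucOS β-catenin tumours. p53 tumour 4 lay within the range of the luc β-catenin tumours, and the call was missed (adjusted p = 0.0512). Cd3d overlapped in the same way, at 13.1 to 46.8 in p53 and 3.46 to 15.3 in luc β-catenin tumours (adjusted p = 0.0512), and Cd28 (16.4 to 39.6 in p53 and 7.76 to 30.7 in luc β-catenin tumours) and Cd27 (64.8 to 127 in p53 and 18.8 to 112 in luc β-catenin tumours), which encode costimulatory receptors, were not called. The 15 matched genes summed to 1378 to 2129.8 in the p53 tumours and 580.3 to 770.5 in the luc β-catenin tumours, without overlap. The number of lower calls was 6 without p53 tumour 1, p53 tumour 3, luc β-catenin tumour 1 or luc β-catenin tumour 2, in turn. With the JAX titles alone the median was -1.36.

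In the list of cytotoxic and NK cell genes 11 of 12 tested members were lower (background 10.2%), with a median of -2.53. Here too members could pass the filter through the p53 tumours alone, so the count is no support for the list. Gzmb, the granzyme that starts caspase cleavage in target cells, had values of 81.2, 92.0, 116 and 73.7 in the p53 tumours, 9.51, 0.97 and 24.7 in the luc β-catenin tumours and 9.46, 7.46 and 9.05 in the lucOS β-catenin tumours. luc β-catenin tumour 3 held most of the Gzmb of its group and was still below every p53 tumour (log2 difference -3.48 ± 0.73 (SE), adjusted p = 0.0146). Nkg7, a granule membrane protein, was at 42.8 to 80.0 in p53 and 2.91 to 14.5 in luc β-catenin tumours (log2 difference -2.96 ± 0.50 (SE), adjusted p = 0.00716). Klrd1, the CD94 receptor of NK cells, was at 41.6 to 60.7 in p53 and 3.88 to 9.38 in luc β-catenin tumours (log2 difference -2.71 ± 0.45 (SE), adjusted p = 0.0064). Gzma was at 70.8 to 196 in p53 and 12.6 to 31.5 in luc β-catenin tumours (log2 difference -2.43 ± 0.45 (SE), adjusted p = 0.00948). Prf1, which encodes perforin, was at 27.4 to 71.8 in p53 and 2.91 to 13.6 in luc β-catenin tumours (log2 difference -2.62 ± 0.61 (SE), adjusted p = 0.0214). Prf1 lost its call without p53 tumour 2 or 3 or luc β-catenin tumour 1 or 2 (adjusted p = 0.0513 to 0.0828). Eomes, a transcription factor of effector cells, was at 23.7 to 41.4 in p53 and 2.91 to 7.67 in luc β-catenin tumours (log2 difference -2.62 ± 0.51 (SE), adjusted p = 0.012). Eomes lost its call without luc β-catenin tumour 2 (adjusted p = 0.051). Ifng, interferon γ itself, was below the filter, at 0 to 7.36 in p53 and 0.865 to 3.41 in luc β-catenin tumours. The list summed to 512 to 696 in the p53 tumours and 64.0 to 195 in the luc β-catenin tumours, and 5 of the 11 members were called without luc β-catenin tumour 2.

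Checkpoint genes were lower in 9 of 13 tested members (background 10.2%), with a median of -1.63. Members could pass the filter on low values through the p53 tumours alone, so this count is no support for the list. Pdcd1, which encodes PD-1 (chr1:94038305-94052553), had values of 50.2, 86.5, 71.6 and 29.7 in the p53 tumours, 0, 1.94 and 5.11 in the luc β-catenin tumours and 9.46, 5.80 and 8.23 in the lucOS β-catenin tumours. No β-catenin tumour of either kind reached a p53 tumour (log2 difference -4.42 ± 0.64 (SE), adjusted p = 0.00404). The genes of its ligands were lower as well. Cd274, PD-L1, had values of 419, 697, 328 and 294 in the p53 tumours and 135, 110.5 and 164 in the luc β-catenin tumours (log2 difference -1.60 ± 0.32 (SE), adjusted p = 0.0131). Cd274 lost its call without luc β-catenin tumour 2 (adjusted p = 0.0561). Pdcd1lg2, PD-L2, was at 24.8 to 51.7 in p53 and 0.865 to 4.26 in luc β-catenin tumours (log2 difference -3.49 ± 0.52 (SE), adjusted p = 0.00434). Tigit was at 12.8 to 43.8 in p53 and 0 to 1.73 in luc β-catenin tumours (log2 difference -3.87 ± 0.69 (SE), adjusted p = 0.00851). Ctla4 was at 8.21 to 15.4 in p53 and 0 to 1.71 in luc β-catenin tumours (adjusted p = 0.0102), with every luc β-catenin value far below the filter value of 10.

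Other inhibitory receptors were less even. Havcr2, TIM-3, was at 84.4 to 125 in p53 and 35.9 to 40.1 in luc β-catenin tumours (log2 difference -1.48 ± 0.36 (SE), adjusted p = 0.0241). Havcr2 lost its call without p53 tumour 1, 2 or 3 or luc β-catenin tumour 1, 2 or 3 (adjusted p = 0.0511 to 0.0786). Lag3 had values of 193, 201, 115 and 47.5 in the p53 tumours and 38.0, 23.3 and 63.9 in the luc β-catenin tumours, where p53 tumour 4 fell inside the luc β-catenin range (adjusted p = 0.0715). Foxp3, the factor of regulatory T cells, overlapped at 419 to 702 in p53 and 332 to 457 in luc β-catenin tumours (adjusted p = 0.165). In both groups its values lay above all those of Cd4 and Cd3e, so they are no measure of regulatory T cells. Which cells its reads come from was not tested. The JAX-only median of the list was -1.17, and 4 members were called without luc β-catenin tumour 2.

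MHC class II genes were lower as a nearly complete set: 9 of 10 tested members were lower and 0 higher (background 10.2% and 5.82%). The median was -2.30 and the range -2.58 to -0.74. Ciita, the master co-activator of these genes (chr16:10480059-10528418), had values of 278, 202, 458 and 194 in the p53 tumours, 58.8, 29.1 and 48.6 in the luc β-catenin tumours and 80.8, 29.0 and 41.1 in the lucOS β-catenin tumours (log2 difference -2.58 ± 0.45 (SE), adjusted p = 0.00803). H2-Aa, the α chain of I-A, had values of 1649, 1531, 2507 and 1128 in the p53 tumours, 531, 231 and 381 in the luc β-catenin tumours and 576, 175 and 428 in the lucOS β-catenin tumours (log2 difference -2.18 ± 0.44 (SE), adjusted p = 0.0131). H2-Aa lost its call without luc β-catenin tumour 2 (adjusted p = 0.055). Cd74, the invariant chain that guards the peptide groove, had values of 4761, 4017, 9176 and 5865 in the p53 tumours and 1434, 647 and 1061 in the luc β-catenin tumours (log2 difference -2.51 ± 0.41 (SE), adjusted p = 0.0064). For all 3 genes the groups did not overlap, and for Ciita and H2-Aa the lucOS β-catenin tumours were also all below the p53 tumours. H2-DMb1, part of the peptide exchange factor, was at 332 to 835 in p53 and 67.9 to 110.0 in luc β-catenin tumours (log2 difference -2.44 ± 0.38 (SE), adjusted p = 0.00541). H2-Ob, which restrains that exchange in B cells, was the member not called. Without luc β-catenin tumour 2, H2-Aa and H2-Eb1 (log2 difference -2.42 ± 0.47 (SE), adjusted p = 0.0119) were among the lost calls (H2-Eb1 lost its call without luc β-catenin tumour 2 (adjusted p = 0.051)), and 6 members were called. H2 genes are close in sequence, so single values are uncertain.

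The promoters of H2-Aa and H2-Eb1 are shown because they held an exact copy of CTGATTGG, the Y box that the factor NF-Y binds next to the site at which Ciita acts. Capitals mark it, from 51 to 44 and from 62 to 55 bases before the start. Both are RefSeq's sequences on GRCm38.p6, 5′ to 3′ in the direction of the gene.
H2-Aa, chr17:34287824-34287953, minus strand: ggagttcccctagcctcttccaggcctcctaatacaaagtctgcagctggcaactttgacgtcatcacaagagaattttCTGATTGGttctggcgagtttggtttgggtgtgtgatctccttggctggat
H2-Eb1, chr17:34305737-34305866, plus strand: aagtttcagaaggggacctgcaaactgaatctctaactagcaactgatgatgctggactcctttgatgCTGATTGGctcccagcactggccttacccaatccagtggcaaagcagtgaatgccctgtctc
On either strand of the 250 bases before the start the motif was in 1258 of 32851 promoters (3.83%) and in 2 of the 6 tested class II members with a single promoter entry.

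Interferon γ response genes were lower in 9 of 16 tested members (background 10.2%), with a median of -1.91 and a JAX-only median of -1.01. Low members such as Socs1 could pass the filter through the p53 tumours alone, so this count is no support for the list. Tgtp1, a GTPase that T cells and interferon induce, had values of 682, 779, 1068 and 379 in the p53 tumours, 89.1, 38.8 and 176 in the luc β-catenin tumours and 194, 173 and 85.6 in the lucOS β-catenin tumours (log2 difference -2.99 ± 0.54 (SE), adjusted p = 0.00863). Gbp2, a guanylate-binding protein that attacks pathogen vacuoles, had values of 845, 1199.7, 1019 and 439.6 in the p53 tumours, 129, 60.1 and 204 in the luc β-catenin tumours and 249, 107 and 122 in the lucOS β-catenin tumours (log2 difference -2.81 ± 0.49 (SE), adjusted p = 0.00803). Gbp7 was at 369.5 to 1154 in p53 and 122 to 216 in luc β-catenin tumours (log2 difference -2.11 ± 0.40 (SE), adjusted p = 0.0102). Socs1, the feedback inhibitor of JAK kinases, was at 28.5 to 59.8 in p53 and 3.88 to 11.9 in luc β-catenin tumours (log2 difference -2.33 ± 0.45 (SE), adjusted p = 0.0116). In all 4 genes p53 tumour 4 was the lowest of its group and still above the luc β-catenin tumours. The Gbp genes are near-identical in parts, so single values are uncertain.

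These 4 promoters are shown because they held GAAA, any 2 bases and GAAA again, the core of the interferon-stimulated response element, within 90 bases of the start. Capitals mark the motif, which is on the opposite strand in Gbp2 and Gbp7 and occurs as a pair of overlapping copies in Socs1. The sequences are RefSeq's on GRCm38.p6, 5′ to 3′ in the direction of the gene.
Tgtp1, chr11:48992247-48992376, minus strand: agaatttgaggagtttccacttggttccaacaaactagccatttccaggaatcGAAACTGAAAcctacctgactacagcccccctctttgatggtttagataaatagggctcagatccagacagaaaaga
Gbp2, chr3:142620533-142620662, plus strand: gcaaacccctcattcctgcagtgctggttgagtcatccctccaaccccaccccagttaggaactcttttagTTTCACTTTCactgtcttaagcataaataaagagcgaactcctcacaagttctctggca
Gbp7, chr3:142530206-142530335, plus strand: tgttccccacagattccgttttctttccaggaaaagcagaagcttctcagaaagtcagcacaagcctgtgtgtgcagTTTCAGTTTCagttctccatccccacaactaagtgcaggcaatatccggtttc
Socs1, chr16:10785537-10785666, minus strand: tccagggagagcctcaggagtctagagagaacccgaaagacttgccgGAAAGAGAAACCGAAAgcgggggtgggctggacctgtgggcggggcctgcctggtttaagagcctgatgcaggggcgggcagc
Among all promoters searched in the same way, 978 of 32851 (2.98%) held the motif. It was in 9 of 10 interferon γ list members with a single promoter entry, in 7 of 11 such type I interferon members and in 2 of 14 such MHC class I members. Of the 9 interferon γ members with the motif 6 were called, and Irgm1, Irgm2 and Igtp were not.

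Irf1, which also answers interferon γ, overlapped between the groups at 1219 to 2353 in p53 and 879 to 1311 in luc β-catenin tumours. Of 20 tested type I interferon genes 2, Ifit1 and Ifit2, were lower, a share near the 10.2% of all genes called lower. Their groups overlapped, and none of the 20 was called with TMM factors. Ifit1 had values of 407, 792, 278 and 175 in the p53 tumours and 76.1, 45.6 and 203 in the luc β-catenin tumours, and p53 tumour 4 was below luc β-catenin tumour 3 (log2 difference -1.98 ± 0.59 (SE), adjusted p = 0.0484). It lost its call without p53 tumour 1, 2 or 3 or luc β-catenin tumour 1 or 2 (adjusted p = 0.0869 to 0.167). The median of this list was -1.42 in all 7 tumours, -0.22 with the JAX titles alone and 0.09 in the first set.

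MHC class I genes were lower in 5 of 18 tested members (background 10.2%), with a median of -0.22.  Nlrc5, the co-activator of class I genes, had values of 473, 1061, 653 and 507 in the p53 tumours, 173, 187 and 139 in the luc β-catenin tumours and 152, 216 and 155 in the lucOS β-catenin tumours (log2 difference -1.95 ± 0.30 (SE), adjusted p = 0.00558). The immunoproteasome subunits Psmb9 (388 to 879.5 in p53 and 108 to 179.8 in luc β-catenin tumours, log2 difference -2.17 ± 0.40 (SE), adjusted p = 0.00981) and Psmb8 (715 to 1509 in p53 and 174 to 426 in luc β-catenin tumours, log2 difference -1.90 ± 0.37 (SE), adjusted p = 0.0113) were lower, as was the peptide transporter Tap1 (log2 difference -1.49 ± 0.36 (SE), adjusted p = 0.0237), which lost its call without p53 tumour 1, 2 or 3 or luc β-catenin tumour 1 or 2 (adjusted p = 0.0521 to 0.0868). H2-Q4, a non-classical class I gene, was at 1749 to 2575 in p53 and 683 to 856 in luc β-catenin tumours (log2 difference -1.53 ± 0.17 (SE), adjusted p = 0.00117). The classical heavy chains H2-K1 (8555 to 16529.5 in p53 and 8899.8 to 16766 in luc β-catenin tumours) and H2-D1 (9218 to 16305 in p53 and 5539 to 10859.7 in luc β-catenin tumours) overlapped, and B2m, the light chain, was at 11525 to 14349 in p53 and 6197 to 10690.1 in luc β-catenin tumours (adjusted p = 0.072).

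**Figure D3:**
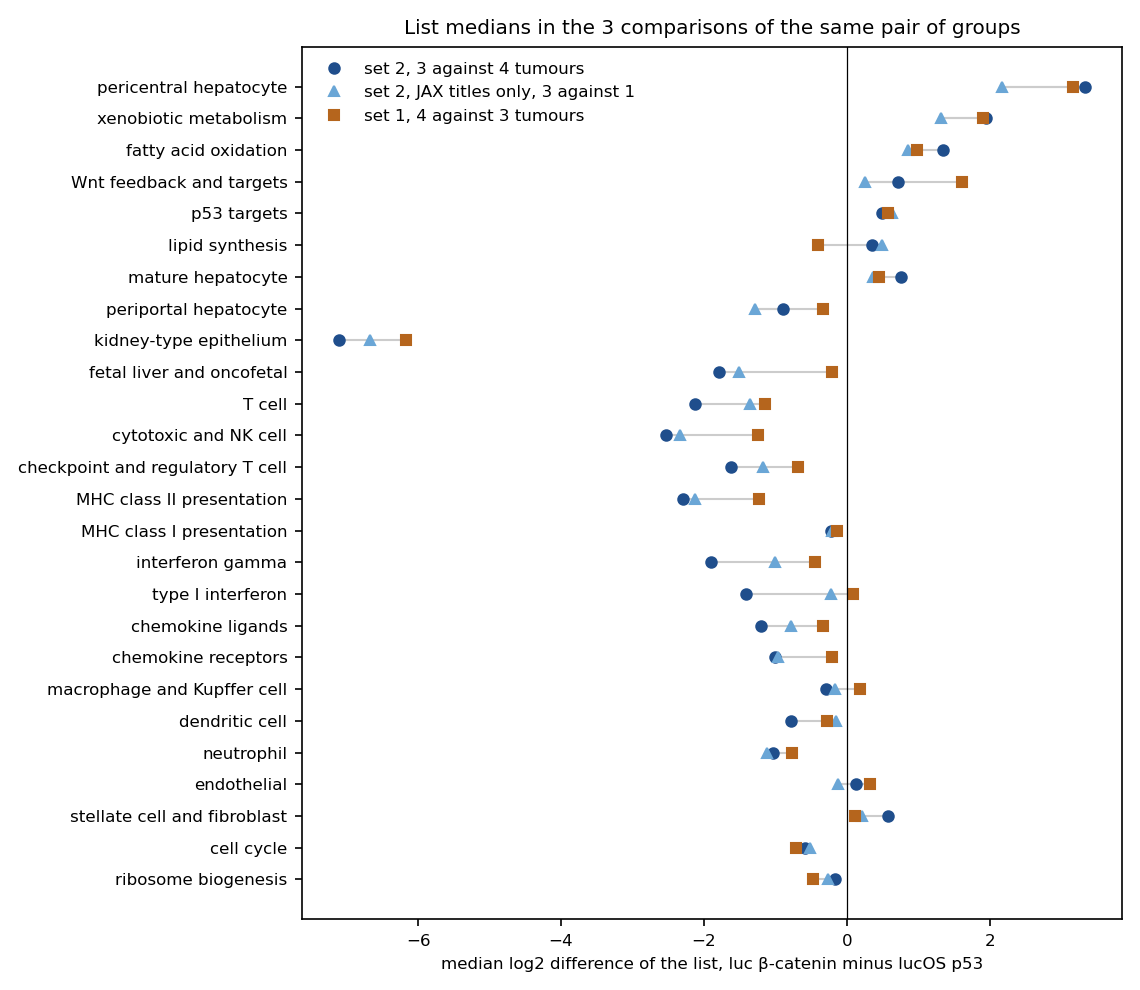
Median log2 difference of each list between luc β-catenin and p53 tumours in the second set (circles), in the 4 tumours of these 2 groups with JAX titles (triangles) and in the first set (squares). For the T cell list the medians are -2.12, -1.36 and -1.15, and for the pericentral list 3.33, 2.17 and 3.17.

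Chemokine genes were lower in part. Of 20 tested ligand genes 4 were lower and 1 higher (background 10.2% and 5.82%), with a median of -1.20. Low ligand genes could pass the filter through 1 group alone, so this count is no support for the list. Cxcl10, which draws activated T cells through CXCR3, had values of 1709, 1581, 1144 and 1225 in the p53 tumours, 138, 139 and 321 in the luc β-catenin tumours and 111, 99.5 and 250.1 in the lucOS β-catenin tumours. The p53 tumours were all above the β-catenin tumours (log2 difference -2.92 ± 0.40 (SE), adjusted p = 0.00319). Ccl5, which draws T cells and monocytes, had values of 176, 202, 126 and 86.7 in the p53 tumours, 9.51, 12.6 and 52.0 in the luc β-catenin tumours and 20.4, 27.4 and 19.8 in the lucOS β-catenin tumours (log2 difference -2.85 ± 0.56 (SE), adjusted p = 0.012). Ccl5 lost its call without luc β-catenin tumour 2 (adjusted p = 0.0513). Cxcl1, a neutrophil attractant, was at 296 to 955 in p53 and 37.2 to 167 in luc β-catenin tumours (log2 difference -2.90 ± 0.66 (SE), adjusted p = 0.0198). Cxcl1 lost its call without p53 tumour 3 or luc β-catenin tumour 1 or 2 (adjusted p = 0.0535 to 0.0605). Cxcl12, made by stroma and endothelium, was at 6314 to 9166 in p53 and 1313 to 3485 in luc β-catenin tumours (log2 difference -1.75 ± 0.33 (SE), adjusted p = 0.0108).

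Cxcl9, the partner of Cxcl10, had values of 459, 325, 718 and 202 in the p53 tumours and 108, 148 and 276 in the luc β-catenin tumours. luc β-catenin tumour 3 was above p53 tumour 4, and the call was missed (adjusted p = 0.0937). Ccl4, a dendritic cell and monocyte attractant, was at 26.5 to 66.2 in p53 and 4.32 to 24.7 in luc β-catenin tumours (adjusted p = 0.0517). Ccl3 was at 30.9 to 53.4 in p53 and 6.79 to 32.4 in luc β-catenin tumours (adjusted p = 0.0588). Xcl1, which attracts cross-presenting dendritic cells, was below the filter, at 6.39 to 10.7 in p53 and 0 to 2.56 in luc β-catenin tumours. The 1 ligand called higher was Cxcl15, known as lungkine, at 0, 0, 0 and 0 in the p53 tumours, 75.2, 98.9 and 34.1 in the luc β-catenin tumours and 45.1, 33.2 and 67.5 in the lucOS β-catenin tumours (at least 23-fold higher in the luc β-catenin tumours, adjusted p = 0.000238), and it moved with the lung epithelial genes described in the opening.

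Chemokine receptor genes were also lower in part. Of 17 tested, 6 were lower and 1 higher (background 10.2% and 5.82%), with a median of -1.01. Low receptor genes such as Cxcr6 could pass the filter through the p53 tumours alone, so this count is no support for the list. Cxcr6, of tissue-resident T and NKT cells, was at 24.9 to 58.0 in p53 and 3.88 to 6.82 in luc β-catenin tumours (log2 difference -2.80 ± 0.42 (SE), adjusted p = 0.0049). Cxcr3, the receptor of Cxcl9 and Cxcl10, was at 15.4 to 32.8 in p53 and 3.88 to 12.8 in luc β-catenin tumours (log2 difference -1.81 ± 0.50 (SE), adjusted p = 0.0368). Cxcr3 lost its call without p53 tumour 1, 2 or 3 or luc β-catenin tumour 1 or 2 (adjusted p = 0.0713 to 0.126). Ccr2, of inflammatory monocytes, was at 109 to 214 in p53 and 65.0 to 89.1 in luc β-catenin tumours (adjusted p = 0.0848). The scavenging receptor Ackr4 was the member called higher (log2 difference 1.37 ± 0.37 (SE), adjusted p = 0.035). Ackr4 lost its call without p53 tumour 1, 2 or 3 or luc β-catenin tumour 1 or 2 (adjusted p = 0.0522 to 0.122). Without p53 tumour 3 or luc β-catenin tumour 2 only 1 receptor gene was called lower.

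Most macrophage genes were not called. Of 18 tested members 4 were higher and 0 lower (background 5.82% and 10.2%), with a median of -0.30. Low members such as Clec4f could pass the filter through the β-catenin tumours alone, so this count is no support for the list. Clec4f, a lectin restricted to Kupffer cells, had values of 0, 0.92, 0.995 and 11.9 in the p53 tumours, 869, 545 and 35.8 in the luc β-catenin tumours and 169.6, 47.3 and 429.5 in the lucOS β-catenin tumours (log2 difference 6.61 ± 1.24 (SE), adjusted p = 0.0102). luc β-catenin tumour 3 was far below the other luc β-catenin tumours and above every p53 tumour. Vsig4, a complement receptor of resident macrophages, was at 1.84 to 9.51 in p53 and 15.3 to 352 in luc β-catenin tumours (log2 difference 4.41 ± 1.04 (SE), adjusted p = 0.0223). Vsig4 lost its call without p53 tumour 1, 2 or 3 or luc β-catenin tumour 1 or 2 (adjusted p = 0.0519 to 0.0842). The scavenger receptor genes Marco (4.56 to 11.9 in p53 and 17.1 to 171 in luc β-catenin tumours, log2 difference 2.86 ± 0.72 (SE), adjusted p = 0.0278) and Cd163 (12.9 to 46.3 in p53 and 52.9 to 305 in luc β-catenin tumours, log2 difference 2.51 ± 0.70 (SE), adjusted p = 0.0385) were the other called members. Marco lost its call without p53 tumour 1 or 3 or luc β-catenin tumour 1 or 2 (adjusted p = 0.0711 to 0.0987), and Cd163 lost its call without p53 tumour 1, 2 or 3 or luc β-catenin tumour 1 or 2 (adjusted p = 0.0644 to 0.127). The 14 members that were not called include Timd4, Cd5l and Mrc1, which are also known from resident macrophages, and genes found across macrophages. Adgre1, the F4/80 antigen, was at 727 to 1367 in p53 and 483 to 569 in luc β-catenin tumours (adjusted p = 0.0614). Csf1r was at 1284 to 2404 in p53 and 1099.6 to 1259.8 in luc β-catenin tumours (adjusted p = 0.108). C1qa was at 1694 to 3432 in p53 and 878 to 1978 in luc β-catenin tumours (adjusted p = 0.129).

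Dendritic cell genes were lower in 3 of 13 tested members (background 10.2%), a count that is no support for the list because low members could pass the filter through the p53 tumours alone. The 3 were Itgax, which encodes CD11c (587 to 959 in p53 and 132 to 419 in luc β-catenin tumours, log2 difference -1.95 ± 0.51 (SE), adjusted p = 0.0324), Ccr7, which guides mature cells to lymph nodes (40.4 to 66.2 in p53 and 6.05 to 29.0 in luc β-catenin tumours, log2 difference -1.92 ± 0.52 (SE), adjusted p = 0.0355), and Siglech, of plasmacytoid cells (15.4 to 42.8 in p53 and 3.46 to 13.6 in luc β-catenin tumours, log2 difference -1.86 ± 0.55 (SE), adjusted p = 0.0473). Itgax lost its call without p53 tumour 1, 2 or 3 or luc β-catenin tumour 1 or 2 (adjusted p = 0.0642 to 0.112), Ccr7 lost its call without p53 tumour 1, 2 or 3 or luc β-catenin tumour 1 or 2 (adjusted p = 0.0757 to 0.0987), and Siglech lost its call without p53 tumour 1, 2 or 3 or luc β-catenin tumour 1 or 2 (adjusted p = 0.0797 to 0.142). With edgeR's quasi-likelihood test none of the 13 was called. The median of the dendritic cell list was -0.79, and it was -0.15 with the JAX titles alone. Genes of cross-presenting cells overlapped: Clec9a was at 46.3 to 71.8 in p53 and 42.7 to 73.3 in luc β-catenin tumours (adjusted p = 0.982). Xcr1 was at 2.38 to 18.9 in p53 and 6.79 to 19.9 in luc β-catenin tumours (adjusted p = 0.56). B and plasma cell genes held 1 lower member of 6 (Mzb1, log2 difference -1.75 ± 0.42 (SE), adjusted p = 0.0246), which lost its call without p53 tumour 1, 2 or 3 or luc β-catenin tumour 2 or 3 (adjusted p = 0.0529 to 0.0726), and the neutrophil list held 1 of 11 (Csf3r, log2 difference -1.27 ± 0.33 (SE), adjusted p = 0.0319), which lost its call without p53 tumour 1, 2 or 3 or luc β-catenin tumour 1 or 2 (adjusted p = 0.0636 to 0.102). With 10.2% of all genes called lower, 1 call in lists of this size is no result about them. The B and plasma cell median was -1.27, and -0.145 with the JAX titles alone.

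Stromal genes were mostly not called. Of 15 tested endothelial genes 2 were higher and 1 lower (background 5.82% and 10.2%). The 2 higher genes could pass the filter through the β-catenin tumours alone, so this count is no support for the list. Rspo3, a Wnt amplifier made by central vein endothelium, was at 1.82, 0, 1.99 and 4.75 in the p53 tumours, 74.4, 33.9 and 6.82 in the luc β-catenin tumours and 18.2, 3.32 and 40.3 in the lucOS β-catenin tumours (log2 difference 3.38 ± 0.98 (SE), adjusted p = 0.0444). Rspo3 lost its call without p53 tumour 1, 2 or 3 or luc β-catenin tumour 1 or 2 (adjusted p = 0.0901 to 0.131). Clec4g, of sinusoidal endothelium, was at 0 to 4.75 in p53 and 11.1 to 83.4 in luc β-catenin tumours (log2 difference 3.88 ± 1.01 (SE), adjusted p = 0.0313). Clec4g lost its call without p53 tumour 1, 2 or 3 or luc β-catenin tumour 1 or 2 (adjusted p = 0.0574 to 0.11). Cdh5, VE-cadherin, was lower at 2314 to 3622 in p53 and 942 to 1823 in luc β-catenin tumours (log2 difference -1.28 ± 0.35 (SE), adjusted p = 0.0377). Cdh5 lost its call without p53 tumour 1, 2, 3 or 4 or luc β-catenin tumour 2 or 3 (adjusted p = 0.0603 to 0.121). Of 16 stellate cell and fibroblast genes 2 were higher: Reln, a matrix protein of stellate cells (0.92 to 34.5 in p53 and 76.7 to 941 in luc β-catenin tumours, log2 difference 4.92 ± 1.11 (SE), adjusted p = 0.0193), which lost its call without luc β-catenin tumour 1 or 2 (adjusted p = 0.0572 to 0.0654), and Hand2 (6.96 to 9.51 in p53 and 23.01 to 106 in luc β-catenin tumours, log2 difference 2.19 ± 0.61 (SE), adjusted p = 0.0393), which lost its call without p53 tumour 1, 2, 3 or 4 or luc β-catenin tumour 1 or 2 (adjusted p = 0.063 to 0.111). Reln and Hand2 could pass the filter on low values through the β-catenin tumours alone, so their count is no support for that list. The collagen gene Col1a1 overlapped at 2216 to 5479 in p53 and 2357 to 8747 in luc β-catenin tumours.

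Of 20 tested cell cycle genes 2 were lower and 0 higher, a share near the 10.2% of all genes called lower. All 20 differences were negative, with TMM factors too, and the median was -0.59. The groups did not overlap, in the lower direction, for 12 of the 20, beside 22.8% of all genes. In the first set 3 of 20 were called lower (background 4.54%), with a median of -0.72. Mki67, the Ki-67 antigen, had values of 23238, 31478, 28524 and 19027 in the p53 tumours and 9035, 12269 and 10711 in the luc β-catenin tumours (log2 difference -1.25 ± 0.36 (SE), adjusted p = 0.0435). Mki67 lost its call without p53 tumour 1, 2 or 3 or luc β-catenin tumour 1, 2 or 3 (adjusted p = 0.0841 to 0.111). Top2a, which untangles DNA, had values of 27709, 21467, 22293 and 16981 in the p53 tumours and 8195, 9475 and 8945 in the luc β-catenin tumours (log2 difference -1.30 ± 0.30 (SE), adjusted p = 0.0218). Top2a lost its call without p53 tumour 1 or 3 or luc β-catenin tumour 1, 2 or 3 (adjusted p = 0.0529 to 0.0623). Of 20 ribosome biogenesis genes, a group that MYC is known to drive, 1 (Rrp9, log2 difference -0.77 ± 0.22 (SE), adjusted p = 0.0437) was lower, with a list median of -0.16, and Rrp9 lost its call without p53 tumour 1, 3 or 4 or luc β-catenin tumour 1, 2 or 3 (adjusted p = 0.0717 to 0.123).

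The lucOS β-catenin tumours put a step in the antigen and a step in the driver beside the main comparison. All 3 comparisons share tumours, and the step in the driver is crossed by the AL and JAX titles like the main one. Between luc and lucOS β-catenin tumours 0 of 15625 genes (0.0%) were called by limma, 288 had an unadjusted p under 0.05, and edgeR and DESeq2 called 0 and 10. Between lucOS β-catenin and p53 tumours, which share the antigen, 2656 genes (17.0%) were called, 950 higher (6.08%) and 1706 lower (10.9%). List medians are given side by side, first for luc β-catenin minus p53, then for lucOS β-catenin minus p53 and last for luc minus lucOS β-catenin. They were -2.12, -2.26 and -0.06 for T cells, -2.53, -2.65 and 0.06 for cytotoxic and NK cells, and -2.30, -2.29 and -0.07 for MHC class II. They were 3.33, 3.25 and 0.30 for pericentral genes, 1.34, 1.18 and 0.44 for fatty acid oxidation, and -7.10 (-6.64 with genes at 0 in a group set at their bound), -7.33 and 0.27 for kidney genes. Some other lists had last medians further from 0 than the immune lists above. Type I interferon genes had -1.42, -1.78 and 0.48, and fetal liver genes had -1.79, -1.40 and 0.43. Neutrophil genes had -1.04, -0.55 and -0.41, and red blood cell genes had -0.41, 0.40 and -0.81. A count of 0 between the β-catenin groups does not show that the antigen had no effect there.

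The same pair of groups was measured in the first set of 12 tumours (set 1 in the plots), in 4 luc β-catenin and 3 lucOS p53 tumours, all with AL titles and none shared with the second set. Of 16108 genes tested there, 1204 (7.47%) were called, 472 (2.93%) higher and 732 (4.54%) lower. Of the 15378 genes tested in both sets, 637 were called in both, 266 higher and 371 lower, and 0 in opposite directions. They were 25.7% of the second-set calls and 54.9% of the first-set calls. Among the second-set calls 96.7% had the same sign in the first set, against 77.4% of all genes tested in both. Across these genes, which are not independent, the differences correlated with r = 0.753. At an adjusted p under 0.01, 91 genes were called in both sets.

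**Figure D4:**
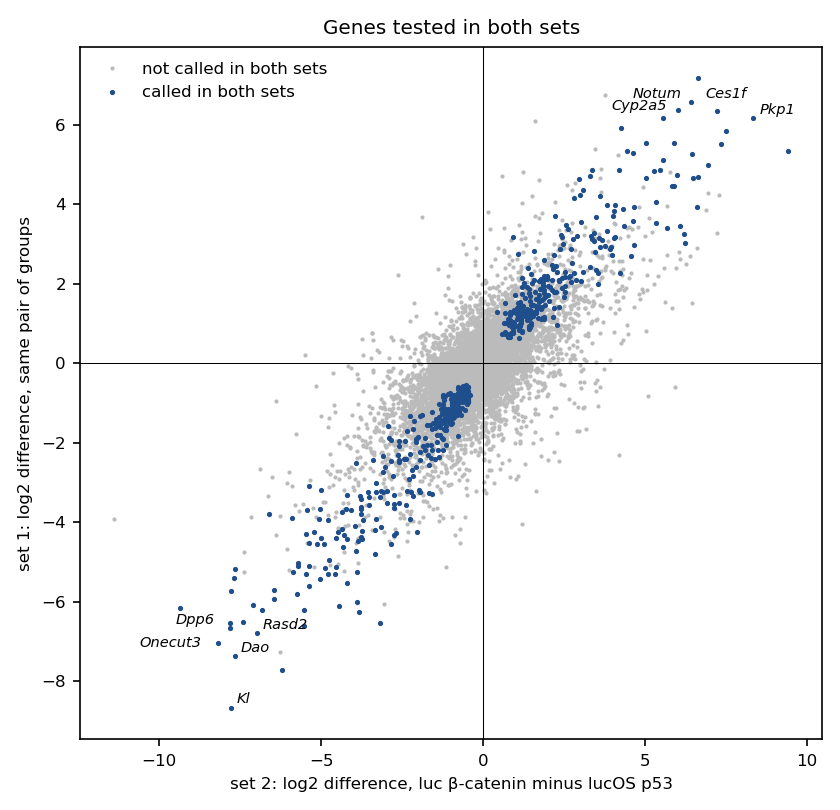
Log2 difference of each of the 15378 genes tested in both sets, luc β-catenin minus lucOS p53, second set on the horizontal and first set on the vertical axis. The 637 genes called in both (blue) all have the same sign in both sets, and the 9 named genes are among those whose smaller difference of the 2 sets is largest.

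The genes named in the plot of both sets include several met above. Notum was at 14.3 to 116 in the p53 tumours and 2479.7 to 12165 in the luc β-catenin tumours of the first set (adjusted p = 0.0008), and Cyp2a5 at 143 to 949.9 in the p53 tumours and 22271 to 99762 in the luc β-catenin tumours of the first set (adjusted p = 0.000817). Pkp1 was at 0 to 13.9 in the p53 tumours and 63.5 to 921 in the luc β-catenin tumours of the first set (adjusted p = 0.00894). On the lower side Kl was at 137 to 3918 in the p53 tumours and 0 to 3.40 in the luc β-catenin tumours of the first set (adjusted p = 0.00174), Dao at 92.6 to 339.6 in the p53 tumours and 0 to 0.924 in the luc β-catenin tumours of the first set (adjusted p = 0.000208) and Dpp6 at 55.2 to 669 in the p53 tumours and 0.895 to 3.41 in the luc β-catenin tumours of the first set (adjusted p = 0.00195). Rasd2, a Ras-like protein of the striatum, was at 391 to 3857 in p53 and 1.94 to 73.5 in luc β-catenin tumours in the second set (log2 difference -6.99 ± 1.48 (SE), adjusted p = 0.0155) and 17.9 to 5217 in the p53 tumours and 1.13 to 9.39 in the luc β-catenin tumours of the first set (adjusted p = 0.0446). Rasd2 lost its call without luc β-catenin tumour 2 (adjusted p = 0.0633).

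List medians in the first set were as follows. Pericentral genes had a first-set median of 3.17, with 14 of 20 called higher, and Glul, which differed little in the second set, had a first-set difference of 3.17 (adjusted p = 0.00406). The T cell median was -1.15 with 2 of 15 called lower, Cd8a having a difference of -2.51 (adjusted p = 0.0457). Of the cytotoxic list 0 of 11 tested genes were called in the first set (5 at an unadjusted p under 0.05), with a median of -1.25. MHC class II (-1.24) and interferon γ genes (-0.44) had negative medians and 0 called members (7.47% of all genes were called), with 1 and 4 members at an unadjusted p under 0.05. Of single genes, limma gave Ciita at -1.35 (adjusted p = 0.277) and Cxcl10 at -1.32 (adjusted p = 0.178). Pdcd1 had a first-set difference of -2.72 (adjusted p = 0.0678) and Ccl5 of -1.18 (adjusted p = 0.223). Dlk1, with the largest second-set difference, had -3.92 (adjusted p = 0.25), and Clec4f had 2.89 (adjusted p = 0.305). Whether the sets differ in any of these genes was not tested.

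**Figure D5:**
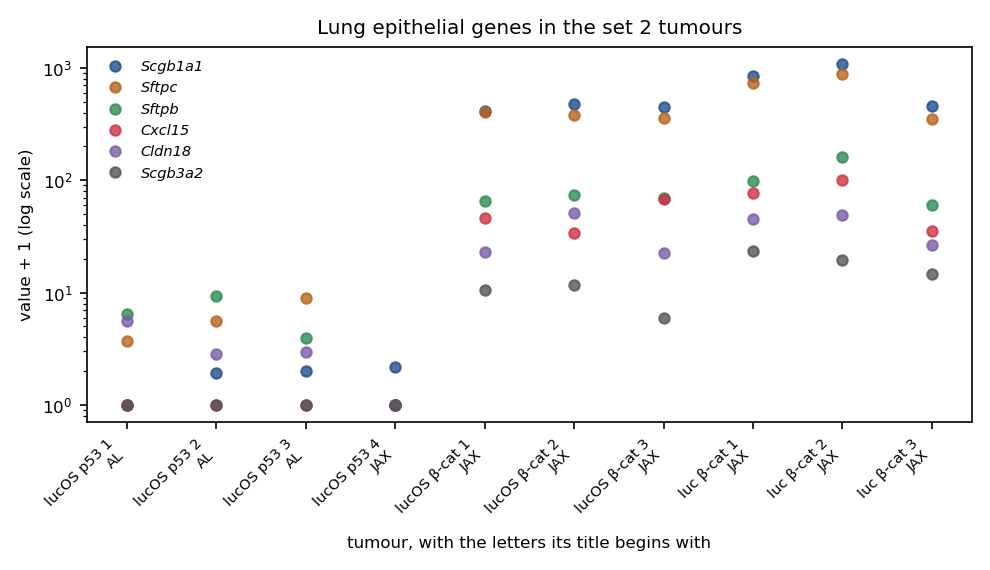
Values of 6 lung epithelial genes in each tumour of the second set, with value + 1 on a log axis and the letters of the title under each tumour. All 6 β-catenin tumours stand above all 4 p53 tumours for each gene drawn, and Scgb1a1 and Sftpc run side by side. The 6 genes were picked from the longer list. Foxj1, which was called lower, and Sftpa1, Lamp3, Napsa and Hopx, which were not called, are not drawn.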

How the data were processed

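RNA of the 10 liver tumours of the second set, and of the 12 of the first set, was sequenced from total RNA with a TruSeq library kit, per the labels' protocols. The submitters' processing notes name TopHat2, featureCounts, DESeq2 and mm10, and their roles, versions and the use of strand are not given in the sources used here. Reads of overlapping or antisense genes therefore cannot be told apart. The deposited signal values are whole reads divided by 1 factor per tumour by the authors: all nonzero values under 1000 reads were whole multiples of 1 read (100.0%, within 0.01 reads).

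Genes reaching 10 in 3 or more tumours (2 or more in the first set) were tested on log2(value + 1) with limma 3.58.1 (R 4.3.3), with all groups of the set in the fit (3 in the second set, 4 in the first), and p-values were adjusted by Benjamini and Hochberg over all genes tested. Calls are at an adjusted p under 0.05, two-sided, and every adjusted p printed is limma's unless another tool is named. A log2 difference of a low gene is understated by the added 1. A low gene could pass the filter through 1 group alone, so counts of such genes are no support for their list. A gene at 0 in a group is given as a bound against 3 reads per tumour, and no fold is given for a group with 1 to 3 reads in all. In the first set each gene was read from its transcript of highest mean, and the sets were never fitted together. In the second set 27 symbols turned into dates were left out.

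Named genes are Myc, Ctnnb1, Trp53 and Ccl5, the 12 per direction with the largest difference (called with each tumour left out, no overlap, mean of at least 100), up to 6 called members per list with members that were not called, and 5 per direction shared with the first set. Acadvl, Hadha, Hadhb and Cpt2, the genes called with the JAX titles, and the first set values of other genes were chosen after values were seen. Groups, lists and members were chosen with earlier results of these data known. Some genes are in several lists, such as Axin2, Tbx3, Ciita, Cxcl10 and Ccr7, so the list counts are not independent. Tf, Trac, Trbc1, Trbc2, Id2, Ighm, Ly6g, Ido1 and Idi1 were listed but not analysed here, and some genes that the rule names are not reported here. Alternatives were other pseudocounts, no filter, TMM or median scaling, only the groups compared, edgeR 4.0.16 and DESeq2 1.42.0 on the recovered reads, each tumour left out, and JAX titles only. The tests were tried on simulated counts. Promoter sequences are from RefSeq (GRCm38.p6).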

Additional observations from a re-analysis of the deposited data

Results flagged for a closer look

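In groups of 4 tumours a value counts as far from the others when its gap to the nearest, divided by the range of the group, is above Dixon's 95% critical value for 4 values. Of 175 named genes tested, 23 passed this in the p53 tumours, and chance passes about 1 in 20 where values are normally distributed, which was not tested for these values. Groups of 3 were not examined.

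p53 tumour 4, the only p53 tumour with a JAX title, was the distant one for 9 genes. It was high for Arg1 (0.909), Clec4f (0.916), Cyp2e1 (0.923), Cyp4a14 (0.894), Nr1i3 (0.938), Por (0.939) and Tdo2 (0.969), and low for Cd3g (0.868) and Cxcl12 (0.956).

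p53 tumour 2 was high for Aox3 (0.905), Bambi (0.843), Ces1f (0.98), Notum (0.956), Rims4 (0.876) and Rxrg (0.976), and low for Cubn (0.831). p53 tumour 1 was high for Meg3 (0.867), Nkx1-1 (0.832), Onecut3 (0.894) and Slc1a2 (0.967), and low for Myc (0.841). p53 tumour 3 was high for Serpinb8 (0.889) and low for Hand2 (0.851).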

How the results depend on the processing

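The 2509 calls became 3806 with DESeq2, 33 with the JAX titles only and 914 to 2036 with 1 tumour left out. The 909 higher calls became 2057 with DESeq2, 24 with the JAX titles only and 354 to 795 with 1 tumour left out. The 1600 lower calls became 968 with TMM factors, 1033 when centred on the median, 796 with edgeR, 9 with the JAX titles only and 560 to 1241 with 1 tumour left out. The share of calls that were higher was 36.2%, and it was 56.4% with TMM factors, 52.4% when centred, 61.1% with edgeR and 54.0% with DESeq2. The 637 genes shared with the first set became 91 at an adjusted p under 0.01 in both. The cause of these shifts was not tested.

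Of 135 named genes called, 53 lost the call without at least 1 tumour. With TMM factors Bambi, Cdh5, Ifit1, Mki67, Rrp9, Sds, Sesn1, Siglech and Xist lost theirs. With edgeR these 9 did, and so did Ccr7, Ces1f, Csf3r, Cxcr3, Itgax, Lrp2, Meg3, Rasd2, Rxrg and Tdo2.

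No called gene turned its sign, and genes that were not called did. With TMM factors, centring, edgeR and DESeq2 the difference of Clec9a was 0.13, 0.094, 0.14 and 0.14, and that of H2-K1 0.073, 0.036, 0.071 and 0.07. With edgeR and DESeq2 Arg1 was at 0.24. With the JAX titles only Clec9a was at 0.21, Ctnnb1 at 0.093, Ass1 at -0.61, Cps1 at -0.022, Myc at -0.07, Nr1i3 at -0.45 and Ppara at -0.12, the bile duct list median at 0.33 and the endothelial one at -0.12. With 1 tumour left out the ranges that crossed 0 were -0.012 to 0.47 for the median of the endothelial list, -0.26 to 0.006 for the median of the ribosome biogenesis list, -1.54 to 0.70 for Arg1, -0.015 to 1.13 for Cdkn1a, -0.23 to 0.15 for Clec9a, -0.66 to 0.033 for Fasn, -0.30 to 0.15 for H2-K1, -0.26 to 0.45 for Myc and -0.077 to 0.092 for Znrf3.

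No paired analysis was possible because the labels give no replicate numbers. Groups of 3 and 4 tumours, the uneven spread of AL and JAX titles, and lung and Y-linked reads in the β-catenin tumours limit all results. Genes under about 3 reads per tumour could not be compared.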
